A study of Mus musculus with 6 samples.

Results

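The genes described here are 10 glucose and lactate transporters and their relatives. They comprise 6 carriers of the SLC2 (GLUT) family, which moves sugars and related polyols, 3 monocarboxylate carriers of the SLC16 (MCT) family, and basigin. They were chosen by name out of 23282 entries in the deposited count tables, and each of the 10 has a single entry. All 10 passed the filter on low counts that left 13771 genes to test. RNA came from a forebrain hemisphere, without olfactory bulbs and cerebellum, of wild-type male C57BL/6J mice aged 8 to 10 weeks. Libraries labelled NCD (3) are from mice on a normal chow diet, and libraries labelled HFD (3) are from mice given a high-fat diet with 60 kcal% fat for 10 days. Neither the labels nor the methods tie each library to an animal of its own, so the p-values measure the spread between these libraries, part of which may be technical.

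Glucose reaches neurons through SLC2 carriers that let it run down its gradient without spending energy. Slc2a1 encodes GLUT1, the carrier of the blood-brain barrier endothelium and of astrocytes, and Slc2a3 encodes GLUT3, the main neuronal form. Slc2a4 encodes the insulin-responsive GLUT4, whereas the products of Slc2a6 and Slc2a8 (GLUT6 and GLUT8) lie mainly on membranes inside the cell. Slc2a13 encodes a myo-inositol carrier driven by protons. Lactate, pyruvate and ketone bodies cross with protons through the MCTs: MCT1 (Slc16a1) in endothelium and glia, MCT4 (Slc16a3) in astrocytes and MCT2 (Slc16a7) in neurons. Basigin (Bsg) is a single-pass membrane protein that brings MCT1 and MCT4 to the cell surface. In bulk tissue, fewer cells of a type and less RNA per cell cannot be told apart.

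Total counts lay between 6842785 and 9689372 per library. The libraries were made from the 3' ends of polyadenylated RNA, so that a transcript gives about a single tag whatever its length, and levels are given as CPM, the reads of a gene relative to the TMM-scaled size of its library. A count of 3, taken as the floor for counting error only, was between 0.316 and 0.432 CPM. Of the 6 libraries, HFD replicate 3 stood apart by pituitary transcripts, with growth hormone (Gh) at 1092 CPM against 1.31 to 7.66 CPM elsewhere. It and NCD replicate 3 also differed most from the others of their diet (chi-square per degree of freedom of 9.74 to 17.1 in pairs with them, against 3.58 and 3.96 in the remaining pairs). Lists of 3 values for a diet follow the order of replicates 1, 2 and 3.

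In the forebrain, Bsg transcripts led the group, followed by those of Slc2a1 and Slc2a3 at nearly the same CPM and of the inositol carrier gene Slc2a13. In CPM, the mean over all 6 libraries was 177 for Bsg, 76.3 for Slc2a1, 74.1 for Slc2a3, 54.8 for Slc2a13, 32.4 for Slc16a1, 14.3 for Slc2a8, 10.6 for Slc2a6, 4.16 for Slc16a7, 3.25 for Slc16a3 and 1.08 for Slc2a4. The ranges over the 6 libraries did not overlap between Bsg and Slc2a1, Slc2a13 and Slc16a1, Slc16a1 and Slc2a8, Slc2a6 and Slc16a7, or Slc16a3 and Slc2a4. Neighbours whose ranges did overlap were Slc2a1 and Slc2a3 (Slc2a1 higher in 4 of 6 libraries), Slc2a3 and Slc2a13 (6 of 6), Slc2a8 and Slc2a6 (6 of 6), and Slc16a7 and Slc16a3 (5 of 6). Among the tested genes, Bsg stood at percentile 92.5 of mean CPM and Slc2a1 at 80.2, whereas Slc16a7 stood at 16.3 and Slc2a4 at 0.436. Per length, dividing the mean CPM by the longest annotated transcript, the level was 116 CPM per kb for Bsg, 23.4 for Slc2a1, 11.9 for Slc2a3, 8.39 for Slc2a13, 7.32 for Slc16a1, 4.58 for Slc2a8, 3.90 for Slc2a6 and 0.337 for Slc2a4. This left 8 of 10 members at their place and exchanged Slc16a7 (0.379 CPM per kb) with Slc16a3 (0.75 CPM per kb).

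**Figure D1:**
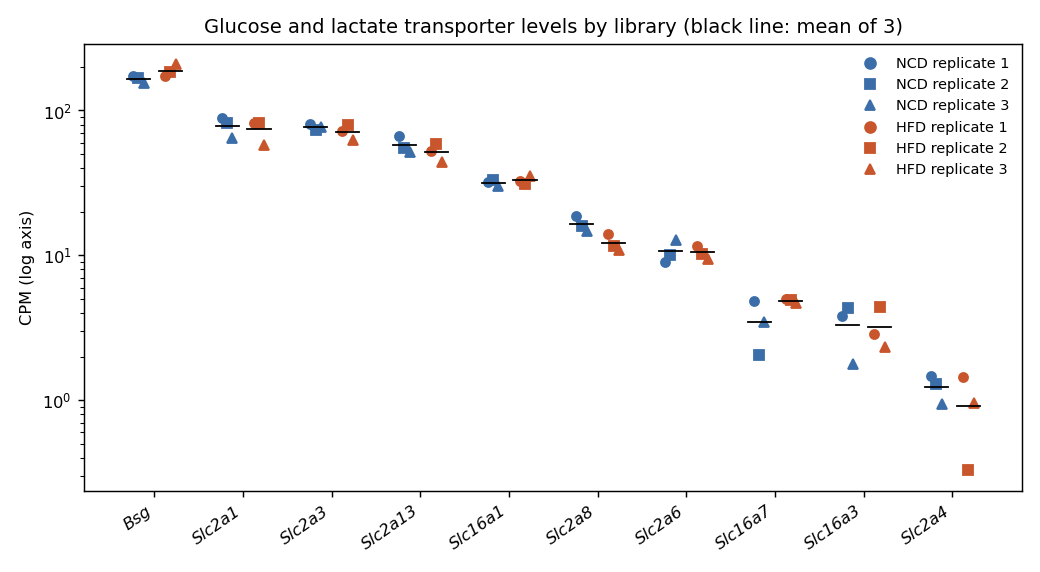
CPM of the 10 transporter genes (log axis) in the 3 NCD and 3 HFD libraries, 1 marker per library and a black line at the mean of each diet. Levels run from 208 CPM for Bsg to 0.328 CPM for Slc2a4, and Slc2a8 is the member whose NCD and HFD markers do not overlap.

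No transporter passed the adjusted test between the diets, and 1 of 10 had an unadjusted p under 0.05. That gene was Slc2a8, lower in the HFD libraries (edgeR quasi-likelihood test, unadjusted p = 0.0259, adjusted p = 0.979 over all genes tested). Across all 13771 genes, 507 or 3.68% had an unadjusted p under 0.05 in either direction, with 272 or 1.98% lower and 235 or 1.71% higher. A fold of at least 1.5 with such a p was seen in 1.28% of all genes and in 0 members. At an adjusted p under 0.05 edgeR called 0 genes, or 0% of those tested, against 2 by DESeq2, neither of them a transporter. The log2 fold change (HFD minus NCD) was below 0 for 7 members and above 0 for 3, with a median of -0.06, where all tested genes had a median of -0.00245. For 6 members (Bsg, Slc2a1, Slc2a3, Slc2a13, Slc16a1 and Slc2a6) the 95% interval lay within 1.5-fold in both directions. For the other four the interval reached past 1.5-fold on at least one side, and 3 of those (Slc16a7, Slc16a3 and Slc2a4) are the members with the fewest counts.

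**Figure D2:**
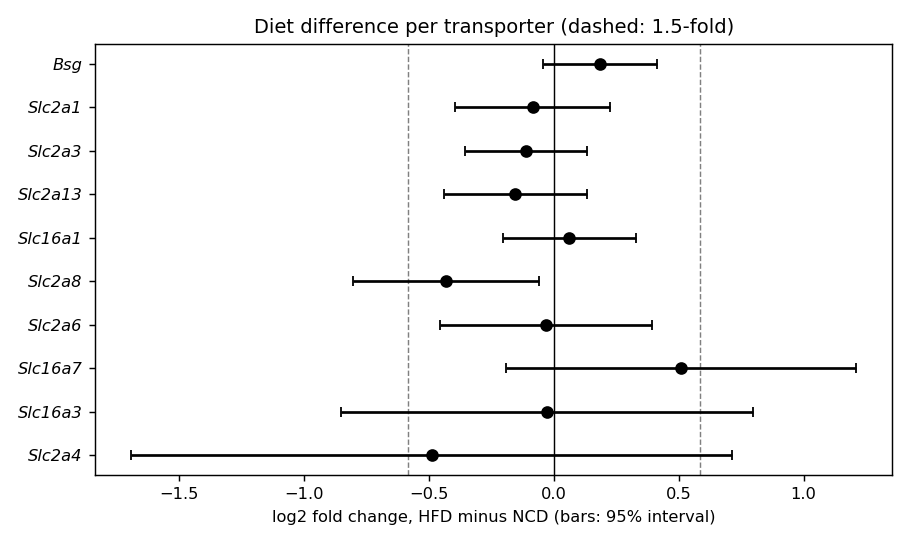
Log2 fold change of each transporter (HFD minus NCD, x axis) with its 95% interval from the edgeR fit; dashed lines mark 1.5-fold. The interval of Slc2a8 runs from -0.80 to -0.06 and is the only one of the 10 that leaves out 0, and those of Slc16a7, Slc16a3 and Slc2a4 are the widest.

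Slc2a1 lies on chromosome 4 from 119108711 to 119137983 (GRCm38, plus strand), where an exon of Gm12868 overlaps it on the other strand. Whether the counting used strand is not given, so reads of such a pair cannot be told apart. It had 88.6, 82.3 and 64.9 CPM on NCD. On HFD it had 82.2, 82.2 and 57.6 CPM. The third library of each diet was the lowest of its diet, and the groups overlapped. The difference in Slc2a1 was -0.08 on the log2 scale, HFD minus NCD (standard error, SE, 0.15, 95% interval -0.39 to 0.22, adjusted p = 0.979 from edgeR). It turned to 0.07 without HFD replicate 3 and to 0.01 without NCD replicate 1. It was -0.05 without the third library of both diets. Its spread within a diet, a coefficient of variation of 17.4%, was above the 4.04% that counting alone would give.

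Slc2a3, the neuronal GLUT3 gene on chromosome 6 from 122727809 to 122801640 (minus strand), was steadier. On NCD its level was 81.2, 72.9 and 77.0 CPM. On HFD it was 71.7, 79.1 and 62.8 CPM, so that the diets overlapped and HFD replicate 3 was lowest. For Slc2a3 the log2 difference was -0.11 (SE 0.11, 95% interval -0.35 to 0.13, adjusted p = 0.979). It was -0.029 without HFD replicate 3 and -0.20 without HFD replicate 2. The interval as a ratio ran from 0.782 to 1.10, and the spread within a diet was 8.73%.

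The insulin-responsive Slc2a4 (chromosome 11, 69942539 to 69948188, minus strand) was near the limit of detection. It gave 12, 12 and 9 reads on NCD against 10, 3 and 7 reads on HFD. The lowest of these, in HFD replicate 2, was at the floor. Its log2 fold change was -0.49 with a 95% interval from -1.69 to 0.71 (adjusted p = 0.979). The value was -0.04 without HFD replicate 2 and -0.97 without HFD replicate 1. Counting alone gives a coefficient of variation of 37.7% here, close to the 40.7% seen within a diet.

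Slc2a8 encodes the intracellular hexose carrier GLUT8 and lies on chromosome 2 from 32972990 to 32982083 (minus strand). The NCD libraries had 18.8, 15.9 and 14.6 CPM. The HFD libraries had 14.0, 11.7 and 10.9 CPM. The lowest NCD library was above the highest HFD library, by 14.6 to 14.0 CPM. Slc2a8 was the only one of the 10 members whose diets did not overlap, and over all tested genes 8.81% did not overlap, 4.49% with the HFD libraries lower. In read counts these libraries held 152, 147 and 139 reads of Slc2a8 on NCD and 97, 107 and 79 on HFD. The mean was 16.4 ± 2.12 CPM (SD, n = 3) on NCD and 12.2 ± 1.61 CPM on HFD (SD, n = 3). On the log2 scale the difference was -0.43 (SE 0.18), a ratio of 0.742 with a 95% interval from 0.573 to 0.96. DESeq2 gave the gene an unadjusted p of 0.041, and limma after quantile normalization one of 0.0285. Leaving out NCD replicate 1 gave -0.33 on the log2 scale (edgeR, unadjusted p = 0.123). Leaving out HFD replicate 2 gave -0.40 (unadjusted p = 0.0733), and leaving out HFD replicate 3 gave -0.36 (unadjusted p = 0.0654, edgeR). Without the third library of both diets it was -0.44 (unadjusted p = 0.0256, edgeR).

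Slc2a6, for GLUT6 of lysosomal membranes, is on the same chromosome from 27021363 to 27027998 (minus strand). Its level was 9.01, 10.1 and 12.9 CPM on NCD. It was 11.7, 10.3 and 9.49 CPM on HFD, and the diets overlapped throughout. The log2 fold change of -0.03 (SE 0.20, adjusted p = 0.995) turned to 0.13 without NCD replicate 3 and to 0.03 without HFD replicate 3. The proton-coupled inositol carrier Slc2a13 (chromosome 15, 91267696 to 91573261, minus strand) had 66.9, 55.2 and 51.3 CPM on NCD. Its HFD libraries had 52.8, 58.4 and 44.3 CPM. The highest library was on NCD and the lowest on HFD, with overlap between them. The inositol carrier had a log2 difference of -0.15 (SE 0.13, 95% interval -0.44 to 0.13, adjusted p = 0.979). It was -0.038 without NCD replicate 1, -0.052 without HFD replicate 3 and -0.25 without HFD replicate 2.

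To show the start regions of the carrier that led the SLC2 members and of the one whose diets did not overlap, their promoters from RefSeq (GRCm38.p6) are printed 5' to 3', from 250 bases before to 50 bases after the annotated start. Of the 10 members, 6 matched a promoter entry (Slc2a1, Slc2a6, Slc2a8, Slc2a13, Slc16a1 and Slc16a3). Capitals mark 3 motifs on either strand. The first is ACGTG, the core bound by hypoxia-inducible factors, which the E-box also contains. The second is the GC box, spelled GGGCGG. The third is the CCAAT box. Slc2a8 is at chr2:32982034-32982333 on the minus strand and Slc2a1 at chr4:119108495-119108794 on the plus strand.
Slc2a8: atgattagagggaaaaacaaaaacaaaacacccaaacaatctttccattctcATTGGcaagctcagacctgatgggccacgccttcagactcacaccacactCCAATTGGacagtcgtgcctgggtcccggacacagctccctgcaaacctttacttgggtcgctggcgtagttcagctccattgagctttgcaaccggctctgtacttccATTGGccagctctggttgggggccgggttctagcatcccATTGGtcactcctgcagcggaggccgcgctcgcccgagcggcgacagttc
Slc2a1: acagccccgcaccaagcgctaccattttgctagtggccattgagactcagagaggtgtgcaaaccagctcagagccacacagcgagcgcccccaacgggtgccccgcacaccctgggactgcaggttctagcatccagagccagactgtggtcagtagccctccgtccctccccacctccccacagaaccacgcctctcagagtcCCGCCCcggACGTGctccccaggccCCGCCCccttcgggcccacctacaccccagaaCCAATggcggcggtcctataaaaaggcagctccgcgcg
The Slc2a8 stretch holds CCAAT or its complement 5 times, one pair of them overlapping, with 0 matches to ACGTG and 0 to GGGCGG. In Slc2a1 there was 1 match to ACGTG, 2 to GGGCGG and 1 to CCAAT. Of all 32851 promoters of this length in the table, 19.6% held ACGTG, 35.7% GGGCGG and 37.4% CCAAT. Of the 6 matched members, 3 held ACGTG (Slc2a1, Slc16a1 and Slc16a3), 5 held GGGCGG and 3 held CCAAT. These matches describe the letters only, and no binding was measured.

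Among the lactate carriers, Slc16a1 was the most abundant and the least variable. It lies on chromosome 3 from 104638668 to 104658462 (plus strand) and had 32.0, 33.1 and 30.0 CPM on NCD. On HFD its level was 32.7, 31.3 and 35.5 CPM. The diets overlapped, and the spread within a diet of 5.79% was near the 6.11% of counting error. Slc16a1 had a log2 fold change of 0.06 (SE 0.13), with a ratio between 0.868 and 1.26 in the 95% interval. The value was 0.011 without HFD replicate 3, 0.025 without NCD replicate 3 and 0.10 without HFD replicate 2. Of all SLC16 counts of the 3 members, Slc16a1 took between 77.1% and 85.1% in a library.

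Slc16a7, the neuronal MCT2 gene on chromosome 10 from 125219270 to 125389465 (minus strand), is likewise overlapped by an exon of Gm47862 on the other strand. The NCD libraries had 39, 19 and 33 reads, or 4.81, 2.05 and 3.48 CPM. The HFD libraries had 35, 45 and 34 reads, or 5.04, 4.92 and 4.67 CPM. The HFD libraries were close together, NCD replicate 2 was low, and NCD replicate 1 lay within the HFD range. Its log2 fold change of 0.51 (SE 0.33, 95% interval -0.19 to 1.21, unadjusted p = 0.144 and adjusted p = 0.979) was the highest of the members. Without NCD replicate 2 it was 0.24, and 0.81 without NCD replicate 1 (unadjusted p = 0.0416, adjusted p = 0.998 from edgeR).

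The astrocytic Slc16a3 (chromosome 11, 120948480 to 120960868, plus strand) was low in every library. It had 31, 40 and 17 reads on NCD and 20, 40 and 17 on HFD. In CPM, the NCD libraries ran from 1.79 to 4.31 and the HFD libraries from 2.34 to 4.37. Slc16a3 had a log2 fold change of -0.03 (SE 0.39, 95% interval -0.85 to 0.80, adjusted p = 0.997). Its sign depended on the library left out: the lowest value, -0.34, came without HFD replicate 2, and the highest, 0.22, without NCD replicate 2.

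Bsg, the surface chaperone of MCT1 and MCT4, is on chromosome 10 from 79704491 to 79711969 (plus strand). Its level was 174, 168 and 156 CPM on NCD. It was 172, 185 and 208 CPM on HFD. HFD replicate 3 was the highest library, and HFD replicate 1 lay within the NCD range. The difference in Bsg between the diets was 0.19 on the log2 scale (SE 0.11, 95% interval -0.04 to 0.41, unadjusted p = 0.105, adjusted p = 0.979), and 0.11 without HFD replicate 3. Red blood cells also carry basigin and MCT1 on their membrane. Their 5 markers, of which the globin genes are near-identical copies whose reads may be shared, summed to 421 to 519 CPM on NCD and 544 to 824 CPM on HFD, highest in HFD replicate 3. All 5 had a log2 fold change above 0, from 0.49 to 0.71, and 4 of 5 had an unadjusted p under 0.05 (0 an adjusted one). Among all genes tested, 1.71% had such an unadjusted p and were higher on HFD. Taken singly, Hba-a1 and Hbb-bt did not overlap between the diets, as for 4.31% of all genes tested with the HFD libraries higher. Hba-a2, Hbb-bs and Alas2 did overlap. The part of red blood cells in the level of Bsg was not tested.

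**Figure D3:**
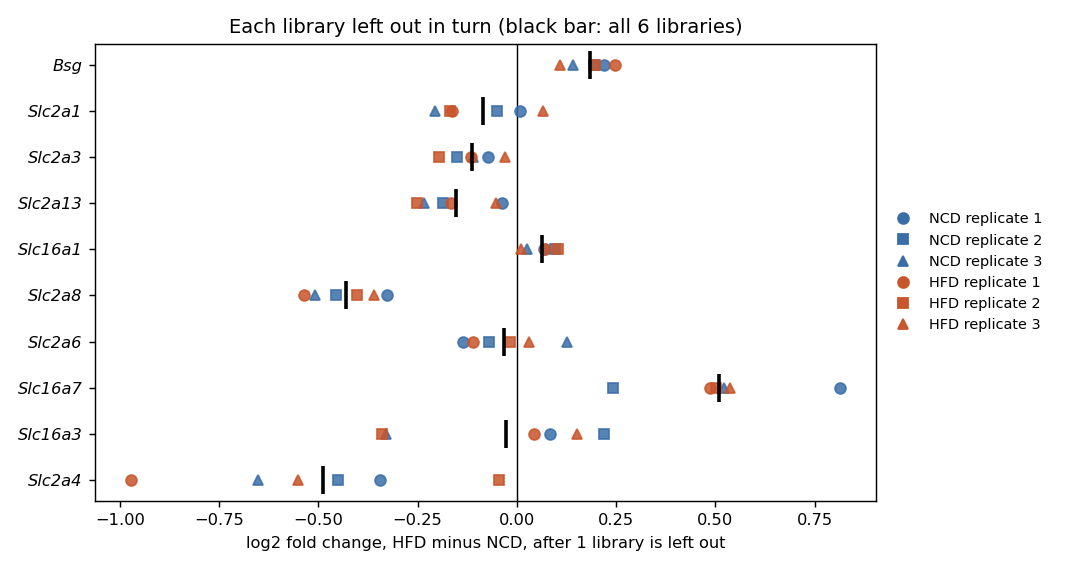
Log2 fold change of each transporter (HFD minus NCD, x axis) after leaving out 1 library; the marker gives the library left out and the black bar the value with all 6. Bsg, Slc2a3, Slc2a4, Slc2a8, Slc2a13, Slc16a1 and Slc16a7 stay on one side of 0, and Slc2a1, Slc2a6 and Slc16a3 cross it.

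Ratios of counts within a library do not depend on library scaling. For 5 of them, 4 between members and 1 of Slc2a1 to endothelium markers, the exact permutation test (two-sided, 20 assignments) cannot go below p = 0.1 with 3 libraries against 3. Slc2a3 to Slc2a1 was 0.916, 0.886 and 1.19 on NCD and 0.872, 0.963 and 1.09 on HFD. In read counts these transcripts were near parity, with the third library of each diet highest (exact permutation p = 0.8, adjusted over the 5 ratios 0.8). Divided by the longest annotated transcript, the level over all libraries was 11.9 CPM per kb for Slc2a3 and 23.4 for Slc2a1. In these 3' end libraries a transcript gives about a single tag whatever its length, so levels are given in CPM. Slc16a7 to Slc16a1 was 0.109 ± 0.0447 on NCD and 0.148 ± 0.0139 on HFD (SD, n = 3 each, exact permutation p = 0.2, adjusted 0.5). Its log2 difference of 0.52 was 0.16 without NCD replicate 2 and 0.80 without NCD replicate 1. The summed SLC2 members to the summed SLC16 members gave 6.55, 6.02 and 6.28 on NCD and 5.76, 5.97 and 4.38 on HFD. This ratio was lower in all 3 HFD libraries, with an exact permutation p = 0.1, the smallest possible here, and 0.5 after adjustment. Its difference on the log2 scale was -0.24, and -0.10 without HFD replicate 3. For Bsg to the SLC16 members the exact permutation p was 0.4 (adjusted 0.625), with 4.32 ± 0.0871 on NCD and 4.57 ± 0.331 on HFD (SD, n = 3 each). On the log2 scale this was 0.080, and 0.028 without HFD replicate 3 or 0.13 without HFD replicate 1. Slc2a1 to the summed endothelium markers was 0.231 ± 0.0335 on NCD and 0.208 ± 0.0244 on HFD (SD, n = 3 each, exact permutation p = 0.5, adjusted 0.625). On the log2 scale this was -0.14, with -0.047 without HFD replicate 3, -0.069 without NCD replicate 1, -0.095 without NCD replicate 2 and -0.27 without NCD replicate 3.

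Within the SLC2 members, Slc2a1 and Slc2a3 together made up 63.9% to 66.7% of the reads in each library, and Slc2a13 made up 22.6% to 25.2%. The joint share of Slc2a1 and Slc2a3 was 64.4 ± 0.786% on NCD and 65.7 ± 0.963% on HFD (SD, n = 3 each), and the diets overlapped.

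**Figure D4:**
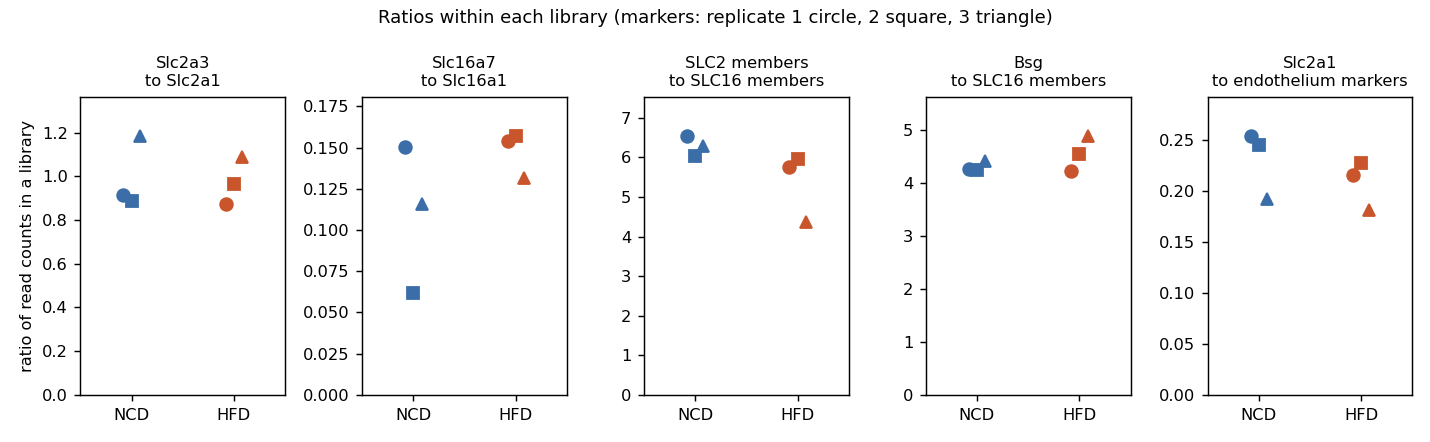
Ratios of read counts within each library (y axes from 0) for 5 pairs or sums, NCD left and HFD right, 1 marker per library. The SLC2 to SLC16 ratio has its 3 HFD markers, from 4.38 to 5.97, under the 3 NCD markers, and the other four ratios overlap.

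Around these members, 78 genes of 8 lists (other carriers, MCT chaperones, glucose and lactate enzymes, traffic and hypoxia genes) were examined in the same fit, and 62 had enough counts. Their median log2 fold change was 0.00344, and 3 (4.84% of those tested, 2 higher and 1 lower) had an unadjusted p under 0.05, against 3.68% of all genes. At an adjusted p under 0.05 there were 0 (edgeR) and 0 with DESeq2. Of 6 other SLC2 genes 4 were tested and 0 had such a p. The most abundant was Slc2a12, a GLUT family member, at 17.9, 18.4 and 15.9 CPM on NCD and 21.0, 19.5 and 21.4 CPM on HFD. These ranges did not overlap, as for 4.31% of all genes tested with the HFD libraries higher. The log2 difference was 0.24 (SE 0.15, edgeR unadjusted p = 0.117, adjusted p = 0.979). Slc2a2 and Slc2a7 did not pass the filter, with at most 4 reads in a library.

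Of 11 other SLC16 genes, 8 were tested, and 1 had an unadjusted p under 0.05. This was Slc16a4, an SLC16 member with little known transport activity, at 10, 18 and 10 reads on NCD and 23, 18 and 28 reads on HFD. On the log2 scale it was higher by 1.08 (SE 0.43, edgeR unadjusted p = 0.0217, adjusted p = 0.979), and the unadjusted p was 0.0613 without NCD replicate 1, 0.0731 without NCD replicate 3, 0.0659 without HFD replicate 1 and 0.1 without HFD replicate 3. Of the chaperones, neuroplastin (Nptn) had 487 ± 48.0 CPM on NCD and 505 ± 18.1 CPM on HFD, and embigin (Emb), a chaperone of MCT2, had 26.1 ± 1.32 CPM and 24.9 ± 2.57 CPM (SD, n = 3 each). Their log2 fold changes were 0.05 and -0.07.

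Of 13 genes for the surface traffic of glucose carriers, all were tested and 1 had an unadjusted p under 0.05. Arrdc4, an arrestin-like protein that takes GLUT1 off the surface, had 4.94, 3.99 and 8.01 CPM on NCD. Its level was 8.06, 12.1 and 8.52 CPM on HFD. The HFD libraries lay above the NCD libraries by a narrow margin, as for 4.31% of all genes tested. The log2 difference was 0.77 (SE 0.27, edgeR unadjusted p = 0.0126, adjusted p = 0.979). This became 0.56 (unadjusted p = 0.0646, edgeR) with NCD replicate 2 left out and 0.55 (unadjusted p = 0.0996) with HFD replicate 2 left out. The vesicle protein Vamp2, most abundant of the list, had a log2 fold change of -0.04 (adjusted p = 0.982).

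Of 11 genes that trap glucose or handle lactate and glycogen (enzymes and the lactate receptor Hcar1), 10 were tested. Lactate dehydrogenase B (Ldhb), most abundant of this list, had 266 ± 6.40 CPM on NCD and 273 ± 11.7 CPM on HFD (SD, n = 3 each). Among 8 further sugar and pyruvate carriers, of which the mitochondrial pyruvate carrier Mpc2 was the most abundant (log2 fold change 0.23, adjusted p = 0.979), 0 had an unadjusted p under 0.05. The same was true of the 16 hypoxia genes tested of 17, led by Ndrg1 at a log2 fold change of -0.00483. Of the 10 sodium-coupled carriers only the inositol carrier Slc5a3 was tested, with a log2 fold change of 0.13 (adjusted p = 0.979).

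The markers of cell types that carry these transporters were summed in each library. Their levels overlapped between the diets for endothelium (335 to 348 CPM on NCD, 318 to 380 CPM on HFD), for pericytes (80.8 to 86.7 and 82.1 to 99.9 CPM), for astrocytes (5406 to 5745 and 5285 to 5583 CPM) and for neurons (7448 to 7915 and 7276 to 7571 CPM). They also overlapped for oligodendrocytes (8238 to 9462 and 9305 to 9990 CPM), for microglia (429 to 441 and 438 to 458 CPM) and for choroid plexus (1049 to 1313 and 1111 to 1252 CPM). Each of these lists had all of its markers tested. The most abundant were Ly6c1 for endothelium, Vtn for pericytes, Slc1a2 for astrocytes, Syt1 for neurons, Csf1r for microglia and Ttr for choroid plexus. As means on NCD, Ttr had 1128 of the summed 1177 CPM for choroid plexus, so that sum says little about its other markers. Slc1a2 had 2878 of the summed 5550 CPM for astrocytes. Skeletal muscle, where Slc2a4 and Slc16a3 are abundant, was at 17.8 to 18.9 CPM on NCD and 14.4 to 17.3 CPM on HFD over 8 markers. Here the ranges of the sums did not overlap. Acta1 alone had 14.6 ± 0.511 CPM on NCD and 11.1 ± 1.84 CPM on HFD (SD, n = 3 each), and thus made up most of these sums. Its diets did not overlap, as for 4.49% of all genes tested with the HFD libraries lower. Of the 3 markers tested, the log2 fold change was -0.39 for Acta1 (edgeR unadjusted p = 0.0422, adjusted p = 0.979), -0.14 for Myh2 and 0.11 for Myh1. Among all genes tested, 1.98% were lower on HFD with an edgeR unadjusted p under 0.05. Ckm, Mb, Myl1 and Tnnt3 did not pass the filter, with at most 6 reads in a library, nor did Myh4, with at most 15. In the fit without a filter, the log2 fold changes of these untested markers were above 0, from 0.73 (Myl1) to 1.37 (Mb).

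**Figure D5:**
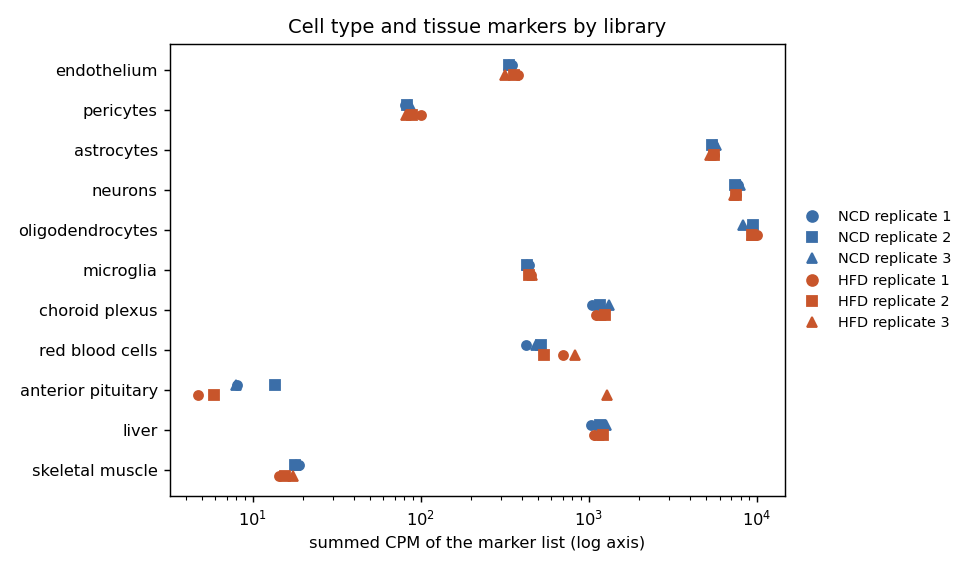
Summed CPM (log axis) of 11 marker lists in each library, NCD above and HFD below on each line. Red blood cell markers are higher in the 3 HFD libraries (544 to 824 CPM against 421 to 519 CPM), and pituitary markers are high in HFD replicate 3 alone at 1276 CPM.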

How the data were processed

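RNA of 6 forebrain libraries (3 NCD, 3 HFD) was prepared by the authors with a QuantSeq 3' kit and sequenced as single 75 bp reads. Per the study's methods, reads were trimmed, aligned to mm10 with Bowtie2, and unique and multiple alignments were counted per gene with Bedtools. The deposited values are raw read counts per gene symbol, without the quantile normalization named in the methods. Tool versions, the annotation and the use of strand are not given in the sources used here, so reads of genes that overlap on opposite strands, or of near-identical copies, may be shared.

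The deposited counts entered edgeR 4.0.16 (under R 4.3.3), beside DESeq2 1.42.0 and limma 3.58.1 for alternatives. filterByExpr (minimum count 10, minimum total 15) kept 13771 of 23282 genes, and 4346 of the 23282 had no count in any library. Libraries were scaled with TMM, and glmQLFit and glmQLFTest were applied without covariates, HFD minus NCD. Standard errors are the log2 fold change over the square root of F, and p-values were adjusted by Benjamini-Hochberg over all genes tested. The common biological coefficient of variation was 0.126. The fits were tested on simulated counts. Positions come from GENCODE vM21 (GRCm38). Tables and plots used Python 3.11.15, pandas 2.3.3 and matplotlib 3.10.9.

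All 10 members are named. Of the related lists, genes with an unadjusted p under 0.05, the most abundant of a list and lists of at most 3 genes are named. Of the marker lists, the most abundant gene and those with an unadjusted p under 0.05 are named, and for the 3 most abundant members the 3 genes closest in profile. The members and lists were chosen with earlier results of these data known. As alternatives, scaling was by RLE, by upper quartile or by library size alone, and the test was DESeq2 or, on quantile-normalized log2(CPM + 1), limma. The filter was removed or raised to 10 counts in each library. Further fits dropped genes holding over 2% of reads, estimated dispersion robustly, took the replicate number as a block, or omitted single libraries. Omitting 1 library of each diet was added after the data were seen. Some genes that this rule would name are not reported here.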

Additional observations from a re-analysis of the deposited data

How the results depend on the processing

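The 10 alternatives that kept all 6 libraries gave 99 member values, all 99 in the reported direction, and Slc2a4 had no value with at least 10 counts in every library. Under each of these 10 the count of members with an unadjusted p under 0.05 was 1. The lowest adjusted p of a member over all 18 alternatives was 0.839. With 1 library left out, the count of members with an unadjusted p under 0.05 ran from 0 to 1 (0 without HFD replicate 2 or 3; without NCD replicate 1 the 1 member was Slc16a7) and that of related genes from 1 (without NCD replicate 3) to 5 (without NCD replicate 1). Without NCD replicate 2 and HFD replicate 3 it was 0 for members. Over all genes it ran from 411 to 773 with 1 library left out and was 902 without a filter. The count at an adjusted p under 0.05 was 0 to 3 with 1 library left out, 6 without the third library of both diets, 2 with DESeq2 and 23 without a filter. Same-numbered libraries showed no shared deviation over the tested genes (correlations of -0.03, 0.05 and -0.06 for replicates 1, 2 and 3). Deviations from means of 3 libraries cannot settle whether samples of the same number were handled together. With a replicate block 1 member, Slc2a8, had an unadjusted p under 0.05, at a log2 fold change of -0.43.

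Log2 fold changes that changed sign with 1 library left out ran from -0.21 to 0.07 for Slc2a1, -0.14 to 0.13 for Slc2a6, -0.34 to 0.22 for Slc16a3, -0.028 to 0.095 for Nptn, -0.12 to 0.04 for Vamp2 and -0.044 to 0.063 for Ndrg1, and the log2 ratio of Slc2a3 to Slc2a1 from -0.11 to 0.11. Without the third library of both diets the sign also changed for Slc2a6 (0.19), Slc16a1 (-0.028), Emb (0.024, against -0.16 to -0.0097 with 1 library left out), Nptn (-0.014), Mpc2 (-0.021, against 0.099 to 0.31 with 1 library left out) and Ndrg1 (0.056). Without NCD replicate 2 and HFD replicate 3 it changed for Slc2a1 (0.10), Slc16a3 (0.40), Vamp2 (0.10) and Ndrg1 (0.051). The cause was not tested.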

Other observations

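Of 18 endothelium markers 2, and of 8 pericyte markers 1, had an unadjusted p under 0.05, against 3.68% of all genes tested, and 0 passed the adjusted test, while the summed lists overlapped between the diets. Mfsd2a, a lipid carrier of the barrier endothelium, had 25.1 ± 1.31 CPM on NCD and 18.1 ± 2.13 CPM on HFD (SD, n = 3 each), a log2 fold change of -0.47 (edgeR unadjusted p = 0.00517, adjusted p = 0.979). Ly6a, a surface antigen of endothelial cells, had 20.7 ± 0.834 CPM and 27.6 ± 1.37 CPM (log2 fold change 0.42, edgeR unadjusted p = 0.00657, adjusted p = 0.979). The pericyte marker Rgs5 had 20.5 ± 1.21 CPM and 25.7 ± 2.96 CPM (log2 fold change 0.32, edgeR unadjusted p = 0.0365, adjusted p = 0.979). For each of these 3 genes the diets did not overlap, as for 8.81% of all genes tested.

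The genes whose levels ran closest to a member over the 6 libraries were found by the root mean square difference of log2 CPM, each gene centred on its own mean. Closest to Bsg were Ccl27a (0.0257), Mpdu1 (0.0260) and Pnrc2 (0.0275), where Bsg itself varied by 0.130 about its mean. Arhgap33 (0.0317), C2cd2l (0.0352) and Tenm2 (0.0409) were closest to Slc2a1 (0.222). For Slc2a3 (0.121) they were Prelid1 (0.0268), Fam120c (0.0273) and Pcdh19 (0.0282). These are descriptions over 6 libraries out of 13771 genes, with no test.

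Of the 10 liver markers 6 were tested and 5 had an unadjusted p under 0.05, all lower on HFD, against 1.98% lower among all genes tested. The remaining tested marker, Ttr, also of choroid plexus, had a log2 fold change of 0.00538. Ttr made up most of the summed list, which overlapped between the diets (1038 to 1269 CPM on NCD, 1068 to 1210 CPM on HFD). Albumin (Alb) had 13.5, 26.9 and 3.90 CPM in NCD replicates 1 to 3 and 2.02, 5.46 and 1.79 CPM in HFD replicates 1 to 3. Ahsg differed by -2.23 on the log2 scale, Alb by -2.19, Fgb by -2.10, Apoa2 by -1.32 and Apoa1 by -1.03 (edgeR unadjusted p from 0.000649 to 0.0333, adjusted p = 0.979 for each). For Alb, Apoa1 and Apoa2 the diets overlapped, with NCD replicate 3 the lowest of its diet, and for Ahsg and Fgb they did not. Over all genes tested, 4.49% did not overlap with the HFD libraries lower. Ahsg had 26, 62 and 15 reads on NCD and 8, 11 and 0 on HFD. Fgb had 29, 35 and 14 reads on NCD and 2, 11 and 3 on HFD. Each was thus at or under the floor of 3 reads in some HFD library.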
